A study of Mus musculus with 2 samples.

Results

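The Wnt genes described here are the secreted Wnt ligands, the Frizzled receptors and co-receptors that bind them, the antagonists that block them, the 2 proteins that ready a ligand for secretion and the core signal transducers *Axin1*, *Axin2* and *Ctnnb1*. They were chosen by symbol, as every array probe whose RefSeq accession resolved to a *Wnt*, *Fzd*, *Sfrp* or *Dkk* gene or to *Lrp5*, *Lrp6*, *Ror1*, *Ror2*, *Ryk*, *Porcn*, *Wls*, *Axin1*, *Axin2*, *Ctnnb1* or *Wif1*, so that no measured value entered the choice. They numbered 48 of the 20887 genes named on the arrays and were read by 57 probes, with 1 probe for 39 genes and 2 for 9. The rule also fits the reference symbol *Fzd10os*, which no named probe carried. By role they were 19 ligands, 2 genes of ligand processing, 10 Frizzled receptors, 5 co-receptors, 9 secreted antagonists and 3 signal transducers.

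RNA came from TCRαβ+CD8αα+ intraepithelial lymphocytes (IELs), T cells that lie between the epithelial cells of the small intestine, of C57BL/6 mice aged 8–12 weeks with males and females pooled. The array labelled Control carried RNA of Rbpjf/f mice. The array labelled RFF4 carried RNA of CD4-Cre Rbpjf/f mice, in which the Cre recombinase is driven by *Cd4* regulatory elements and removes a floxed part of *Rbpj*, the DNA-binding partner through which Notch receptors act on genes. The labels give both groups floxed *Rbpj* and name Cre for RFF4 alone, while the study's methods use wild-type *Rbpj* with CD4-Cre as the control, so whether the control cells carried Cre or floxed alleles is not settled. CD4-Cre is active in αβ T cells from the thymic CD4+CD8+ stage. For each genotype, RNA of several isolations was pooled and 1 one-color Agilent array was hybridized, both on the same slide. With 1 array per genotype the design gives neither a test nor an error across samples, and each difference below compares 2 arrays and not the genotypes.

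On the Control array 57.2% of gene spots were well above background by the scanner software, and 49.7% on the RFF4 array. Values are log2 signals relative to the 75th percentile of each array, and differences are RFF4 minus Control. Setting 8 spike-in controls equal instead moved every measured difference by −1.12, so every gene printed below as higher by less than that became lower. The SD of a difference between spots of the same probe was 0.16, 0.32 for probes dimmer than −2 and 0.089 for the others, which covers technical error within an array only. The targeted gene does not check the labels: the brightest *Rbpj* probe read 1.96 on the Control array and 2.28 on the array labelled RFF4 (0.32, and −0.80 with the spike-in controls), and no source used here places the probe inside or outside the deleted part. The Notch target genes *Heyl* and *Dtx1* were 13.9-fold and 12.3-fold lower on the array labelled RFF4. All 13 T cell markers were well above background on both arrays, with *Cd3e* at 8.10 and 8.44 and *Cd8a* at 6.24 and 6.18. *Cd8b1*, the gene of the CD8β chain that the sort excluded, read −3.52 on the Control array and was below the background call on the other. *Cd4*, also sorted out, read 1.67 and 1.80, and at its other probe −3.88 on the Control array and below the background call on the other.

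Wnt proteins are lipid-modified short-range signals. Porcupine, encoded by *Porcn*, adds the lipid and *Wls* carries the ligand to the cell surface. On the receiving cell a Frizzled receptor with Lrp5 or Lrp6 recruits Dishevelled and Axin, the complex that destroys β-catenin (*Ctnnb1*) is halted, and β-catenin joins TCF/LEF factors on DNA. Other ligands, Wnt5a and Wnt5b among them, often act without β-catenin through Ror or Ryk receptors. In the intestinal crypt, Wnt signals from Paneth cells and the surrounding stroma maintain epithelial stem cells, and in T cells *Tcf7* and *Lef1* are known for their part in thymic development.

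Most Wnt genes were not well above background in these IELs. Of 48, 22 (45.8%) were well above background on at least 1 array, against 68.1% of all named genes. Of these, 16 were so on both arrays, 5 on the Control array alone (*Fzd3*, *Fzd7*, *Porcn*, *Wnt5a* and *Wnt16*) and *Wnt8b* on the RFF4 array alone. The remaining 26 failed this call on both arrays, which is what below background means in this text. A failed call does not show that signal was absent. Well above background were 8 of 19 ligands, both genes of ligand processing, 4 of 10 Frizzled receptors, 3 of 5 co-receptors, 2 of 9 antagonists and all 3 signal transducers. A dim gene was easier to detect on the Control array, where the dimmest probe called well above background stood at −5.51 against −4.29 on the other. In bulk RNA, fewer cells of a type and less RNA per cell cannot be told apart.

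**Figure D1:**
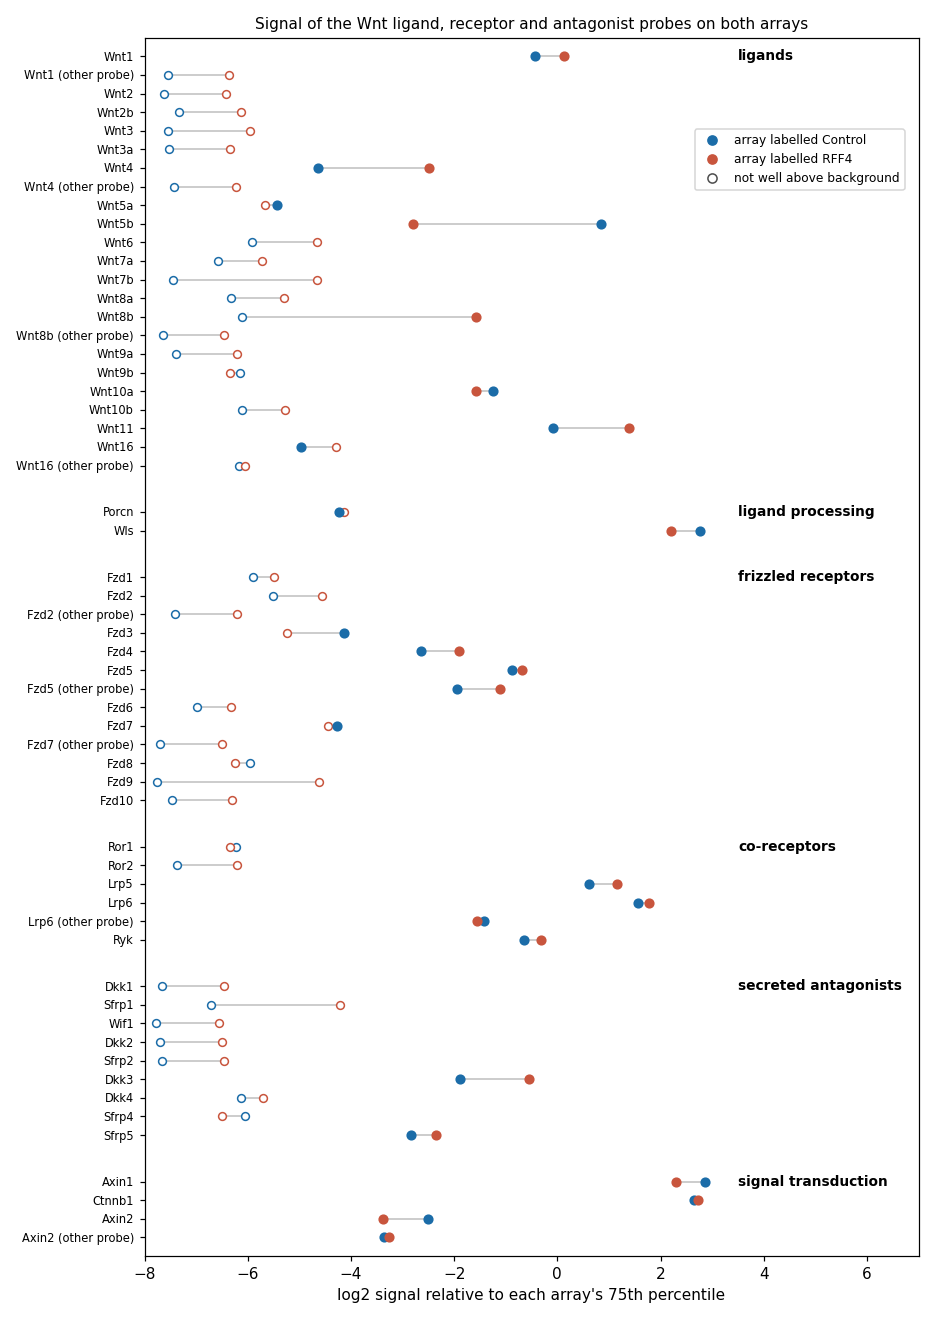
Signal of each of the 57 probes on the array labelled Control (blue) and the array labelled RFF4 (red), as log2 relative to the 75th percentile of the array on the horizontal axis, by gene and role. Filled points are well above background and open ones are not. *Wnt5b* is the widest pair of filled points, from 0.85 to −2.79, and most ligands and antagonists are open on both arrays. Levels of different probes are not comparable.

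A difference could be given for 19 of the 48 genes, 16 measured on both arrays and 3 as a bound where the dimmer array was not well above background. Their median was 0.22, with 12 above 0 and 7 below, beside a median of −0.01 over the 13513 named genes with a difference. The Wnt genes higher by more than 2-fold on the array labelled RFF4 numbered 4, *Wnt8b*, *Wnt4*, *Wnt11* and *Dkk3*, or 21.1% of 19, where 12.3% of all named genes were. More than 2-fold lower was *Wnt5b* alone, or 5.26%, where 5.05% of all named genes were. At 2-fold the share of Wnt genes that were lower was thus near that of all genes. Past 4-fold stood 2 of the 19 higher (10.5%), *Wnt8b* and *Wnt4*, where 1.85% of all genes were, and *Wnt5b* alone lower (5.26%), where 0.585% were.

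**Figure D2:**
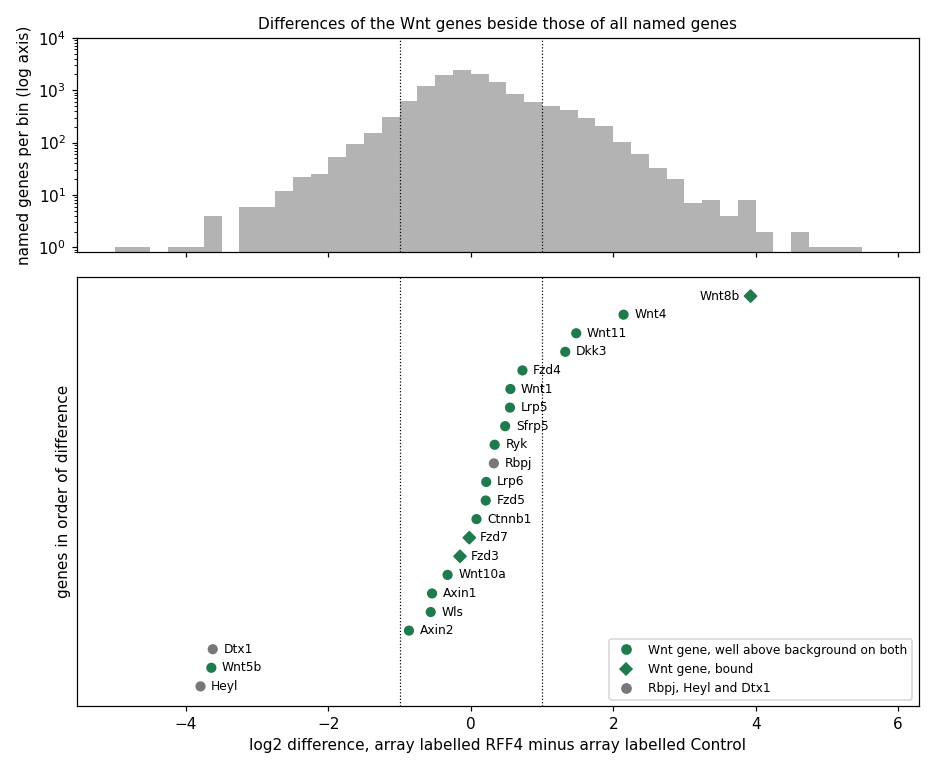
Above, the number of named genes (log axis) by log2 difference, array labelled RFF4 minus array labelled Control, for the 13513 genes with a difference. Below, the 19 Wnt genes with a difference in order (green, diamonds for bounds) and *Rbpj*, *Heyl* and *Dtx1* (grey), with dotted lines at 2-fold. *Wnt5b* lies between *Heyl* and *Dtx1* at the far left, and the other Wnt genes lie between −0.87 and 3.93.

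*Wnt5b* was the Wnt ligand with the largest measured difference. Its single probe had 1 spot per array. The background-subtracted signals were 920 units on the Control array and 32.7 on the array labelled RFF4, well above background on both. Relative to the 75th percentile of each array these are 0.85 and −2.79, a difference of −3.65, or 12.5-fold lower on the array labelled RFF4. The error of this difference from the scanner software's own error of each signal was 0.24. It ranked 3 from the lowest of the 12955 genes measured on both arrays, and with bounds it ranked 5 of 13513. *Heyl*, from 1.85 to −1.95, differed by −3.80 and *Dtx1*, from 6.66 to 3.03, by −3.63. With normexp background correction the *Wnt5b* difference was −2.24 and its rank 22, and over all alternatives run it lay between −4.77 and −2.24.

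RBPJ is known to bind DNA at the letters TGGGAA, and TCF/LEF factors at ATCAAAG and TTCAAAG. *Wnt5b* was picked for display by its difference in these same data. The 250 bases before each of its 3 RefSeq transcript starts (build GRCm38.p6, all on the minus strand) are shown 5′ to 3′, with capitals at any match to these motifs on either strand:
*Wnt5b*, start 1 (chr6:119544348-119544597, minus strand): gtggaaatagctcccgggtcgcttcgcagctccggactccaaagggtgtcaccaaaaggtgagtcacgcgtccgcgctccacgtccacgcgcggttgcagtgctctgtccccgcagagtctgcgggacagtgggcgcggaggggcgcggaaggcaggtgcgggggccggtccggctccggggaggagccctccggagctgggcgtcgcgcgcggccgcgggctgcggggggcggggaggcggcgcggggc
*Wnt5b*, start 2 (chr6:119467212-119467461, minus strand): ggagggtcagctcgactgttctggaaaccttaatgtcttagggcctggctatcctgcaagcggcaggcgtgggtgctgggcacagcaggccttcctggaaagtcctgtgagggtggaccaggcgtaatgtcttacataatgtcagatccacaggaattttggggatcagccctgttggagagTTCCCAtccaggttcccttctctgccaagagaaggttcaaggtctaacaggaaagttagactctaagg
*Wnt5b*, start 3 (chr6:119449387-119449636, minus strand): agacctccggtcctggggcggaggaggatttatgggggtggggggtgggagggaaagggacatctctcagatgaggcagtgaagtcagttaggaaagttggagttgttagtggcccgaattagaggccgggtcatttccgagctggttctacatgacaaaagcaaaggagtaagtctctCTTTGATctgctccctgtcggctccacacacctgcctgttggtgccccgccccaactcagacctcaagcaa
Start 2 holds TTCCCA, the reverse complement of TGGGAA, with its first base at −68 from the start. Start 3 holds CTTTGAT, the reverse complement of ATCAAAG, from −71, and start 1 holds none of the motifs. Which start these IELs use and which transcripts the probe reads were not determined.

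The short RBPJ motif is common. It was in 7094 of the 32851 promoter windows of the reference (21.6%) and in 4 of 36 windows of the Wnt genes (11.1%), those of *Wnt5b*, *Wls*, *Wnt3* and *Wnt9a*. ATCAAAG was in 3.21% of all windows and in 2 of the 36, of *Wnt5b* and *Wnt11*. TTCAAAG was in 4.46% and in 1, of *Dkk1*. Windows were found for 32 of the 48 genes and *Dkk3* and *Heyl* had no entry. The window of *Dtx1*, the other Notch target gene named here, holds none of the motifs. A match describes the letters in the window and is not evidence of binding.

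The ligands *Wnt8b* and *Wnt4* were higher on the array labelled RFF4 from signals near background. *Wnt8b*, known from the developing forebrain, gave signals of 7.40 and 75.9 units at its brighter probe and was well above background on the array labelled RFF4 alone. There it was at least 15.2-fold higher, and its other probe was below background on both arrays at 2.53 and 2.56 units. The bound of 3.93 on the log2 scale was a difference of 1.70 with normexp correction and 1.49 with the mean of both probes, both over 2-fold. *Wnt4*, a ligand of kidney and gonad development, gave 20.5 and 40.3 units, or −4.63 and −2.49, a difference of 2.14 (4.42-fold), which was 1.41 with normexp correction and 1.02 with the spike-in controls. Its other probe was also below background on both. Both calls thus rest on 1 spot per array, as do those of *Wnt5b*, *Wnt11* and *Dkk3*.

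*Wnt11*, a ligand of the β-catenin-independent branch, passed the background call on both. Its probe gave 482 and 597 units, or −0.08 and 1.40 after scaling, and was 2.79-fold higher on the array labelled RFF4. The raw signals of *Wnt11* differed little and most of its difference came from the scaling: with the spike-in controls set equal it was 0.36. *Wnt1* read −0.43 and 0.13, a difference of 0.56 that became −0.57 with the spike-in controls, and its other probe was below background. *Wnt10a* read −1.25 and −1.58, a difference of −0.33. *Wnt5a*, the close relative of *Wnt5b*, read −5.43 and −5.67 and was well above background on the Control array alone. It and *Wnt16* lay too close to the floor for a fold. The other 11 ligands, among them *Wnt3*, *Wnt3a*, *Wnt6* and *Wnt9b*, were below background on both arrays.

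The bases before start 1 of *Wnt11*, which holds a motif, and before the start of *Wnt4* (plus strand) are given for comparison with *Wnt5b*, with capitals as above:
*Wnt11*, start 1 (chr7:98834862-98835111, plus strand): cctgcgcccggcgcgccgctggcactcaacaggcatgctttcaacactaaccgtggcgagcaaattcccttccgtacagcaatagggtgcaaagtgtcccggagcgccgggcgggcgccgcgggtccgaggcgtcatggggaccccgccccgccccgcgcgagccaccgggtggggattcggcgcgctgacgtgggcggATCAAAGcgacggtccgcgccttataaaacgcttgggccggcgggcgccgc
*Wnt4* (chr4:137277385-137277634, plus strand): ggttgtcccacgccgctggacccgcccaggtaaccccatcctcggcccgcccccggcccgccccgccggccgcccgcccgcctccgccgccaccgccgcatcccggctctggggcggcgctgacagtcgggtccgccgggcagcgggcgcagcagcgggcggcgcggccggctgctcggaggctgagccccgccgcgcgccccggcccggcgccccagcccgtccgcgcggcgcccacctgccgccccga
Start 1 of *Wnt11* holds ATCAAAG from −51, and neither start 2 of *Wnt11* nor the window of *Wnt4* holds any of the motifs.

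Both genes of ligand processing gave signal. *Wls* gave 3471 and 1044 units, or 2.77 and 2.20 after scaling, which is 1.48-fold lower on the array labelled RFF4. Its window holds TGGGAA at −211. *Porcn* read −4.22 and −4.13, well above background on the Control array alone, so no fold is given.

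Neither Frizzled receptor measured on both arrays differed by 2-fold. *Fzd4* read −2.64 and −1.91, a difference of 0.72. *Fzd5*, known in Paneth cell maturation, read −0.89 and −0.68 at its brighter probe (0.21) and −1.95 and −1.12 at the other (0.83). Both genes turned to lower with the spike-in controls. *Fzd3* and *Fzd7* read −4.14 and −4.27 on the Control array and were below the background call on the other, whose floor of −4.29 limits their differences to bounds of −0.15 and −0.02. The ratio of the *Fzd3* signals without a bound was −1.11, so the bound does not tell whether it differed by 2-fold. The other 6 receptors were below background on both arrays.

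The co-receptors *Lrp5*, *Lrp6* and *Ryk* were well above background on both arrays, while *Ror1* and *Ror2*, the tyrosine kinase receptors for Wnt5 ligands, were below it on both. *Lrp5* read 0.61 and 1.15 (0.55), *Ryk* −0.64 and −0.31 (0.33) and *Lrp6* 1.56 and 1.78 (0.22), all of them higher under the percentile scaling and lower with the spike-in controls. The other *Lrp6* probe differed by −0.12.

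Of the antagonists, only *Dkk3* and *Sfrp5* were well above background. *Dkk3*, the most divergent Dickkopf protein, gave 138 and 154 units, or −1.88 and −0.55, and was 2.51-fold higher on the array labelled RFF4, with a difference of 0.20 under the spike-in controls. *Sfrp5*, a secreted decoy receptor, read −2.83 and −2.35 (0.48, lower with the spike-in controls). *Dkk1*, *Dkk2*, *Dkk4*, *Wif1*, *Sfrp1*, *Sfrp2* and *Sfrp4* were below background on both arrays.

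All 3 signal transducers were measured on both arrays, and none differed by 2-fold under the percentile scaling. *Ctnnb1* gave 3208 and 1507 units and read 2.65 and 2.73 (0.08), with a sign that depended on the scaling (−1.04 with the spike-in controls). *Axin1*, the scaffold of the destruction complex, gave 3684 and 1122 units and read 2.85 and 2.31, a difference of −0.55 that was −1.67 with the spike-in controls. *Axin2*, the feedback gene that β-catenin is known to turn on, read −2.50 and −3.37 at its brighter probe, a difference of −0.87, and −3.36 and −3.26 at the other (0.11). Its brighter probe passed 2-fold with median scaling (−1.04), cyclic loess (−1.01) and the spike-in controls (−1.99), while normexp correction gave 0.20, so no direction is given for *Axin2*.

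**Figure D3:**
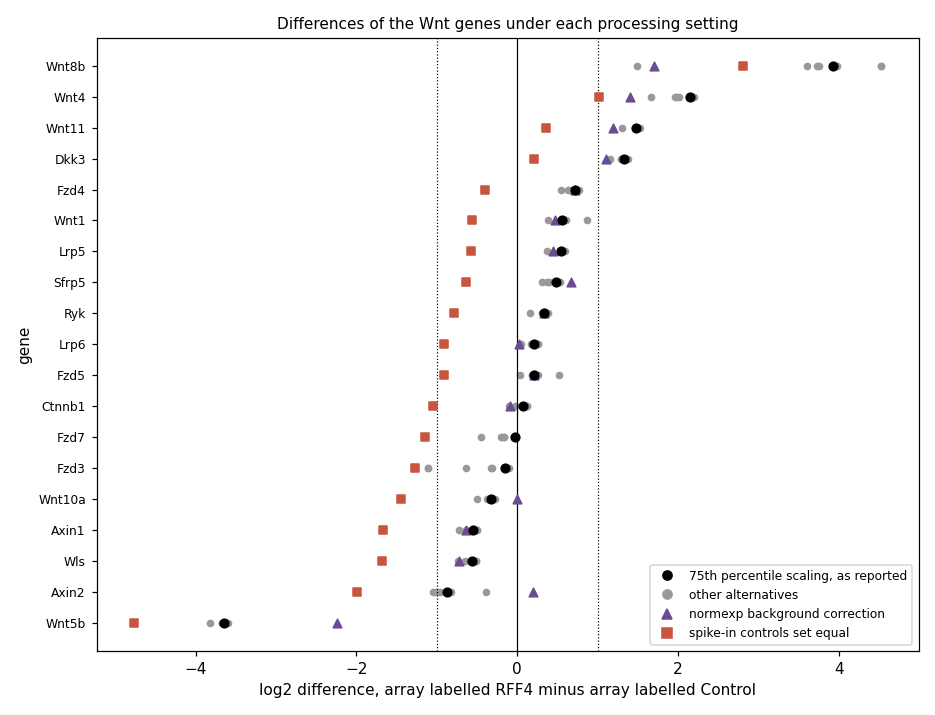
Log2 difference, array labelled RFF4 minus array labelled Control, of the 19 Wnt genes under the scaling used (black) and under each alternative (grey, with normexp correction as purple triangles and spike-in controls set equal as red squares). Dotted lines mark 2-fold. *Wnt5b* stays below −2 under each alternative drawn, while *Wnt11* and *Dkk3* pass 2-fold under each except the spike-in controls.

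Other genes of the pathway were read from lists of 76 genes, of which 57 had a difference. Past 2-fold, 8 of these (14.0%) stood higher on the array labelled RFF4 and 4 (7.02%) lower, with a median of −0.12, where 12.3% and 5.05% of all named genes did. With the spike-in controls none of these lists held a gene over 2-fold higher (0), and 16 of 17 genes of the destruction complex and Dishevelled were over 2-fold lower, where 1.39% of all named genes were higher and 56.7% lower under that scaling. All 17 genes of the β-catenin destruction complex and of Dishevelled, which relays the receptor signal, passed the background call on both. Their median was −0.31 and 14 of 17 lay below 0. *Dvl1* went from 2.17 to 1.02 (−1.14) and *Dvl3* from 2.04 to 3.55 (1.52, and 0.40 with the spike-in controls), so that family members differed in opposite directions. The kinases *Gsk3a* and *Gsk3b*, which mark β-catenin for destruction, differed by −0.06 and −0.23.

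Among TCF/LEF factors and nuclear cofactors, 13 of 14 were well above background, with a median of 0.19 that turned to −0.09 with cyclic loess and −0.93 with the spike-in controls. *Tcf7* went from 0.92 to 1.76 (0.84, and 0.86 at its other probe), *Lef1* from −0.83 to −0.13 (0.70), *Tcf7l1* from −2.96 to −3.93 (−0.97) and *Tcf7l2*, the TCF of gut epithelium, from −1.77 to −0.29 (1.49). Of the other *Tcf7l2* probes, 1 differed by 2.80 and 1 was below background. With the spike-in controls *Tcf7* and *Lef1* were lower, at −0.29 and −0.42, and *Tcf7l2* stayed higher at 0.37. Under the percentile scaling and by the brightest probe, *Tcf7l2* was the sole gene of this list past 2-fold, where averaged probes gave 2 higher, and median scaling, quantile normalization and cyclic loess each gave 1 lower as well. The other 2 probes of *Tle1*, a corepressor named after its values were seen, differed by 1.47 and 1.14, and its brightest by 0.43.

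Known target and feedback genes of the pathway, *Axin2* included, had a median of 0.36 over 15 of 17 with a difference. Past 2-fold, 4 of the 15 (26.7%) were higher and 1 (6.67%) lower, where 12.3% and 5.05% of all named genes were. Those on the higher side were *Ccnd1*, a cell cycle cyclin (from −0.37 to 1.66, 2.03), *Cd44*, an adhesion receptor (1.21 at its brightest probe, and 0.48, 0.51 and 0.92 at the other 3), *Tnfrsf19* (1.20) and *Nkd1*, an inhibitor of Dishevelled (at least 3.60-fold). The other *Tnfrsf19* probe went from −5.05 to −5.37, called on the Control array alone, and the other *Nkd1* probe was below background on both. With probes of a gene averaged, 2 target genes passed on this side in place of 4. *Znrf3*, a ligase that clears Frizzled from the membrane, was lower, from −0.61 to −1.83 (−1.22). On the lower side, 0 target genes passed 2-fold with normexp correction, and 2 did with median scaling and with cyclic loess. The median of these target genes was −0.76 with the spike-in controls, where none passed 2-fold on the higher side (0 genes). *Lgr5*, the marker of crypt stem cells, and *Prox1* were below background on both arrays. Of the modulators, all 4 *Rspo* genes, which encode the ligands of Lgr receptors, were below background and 5 of 17 genes had a difference, with *Tspan12*, a partner of *Fzd4*, more than 2-fold higher (1.41, and 0.29 with the spike-in controls).

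**Figure D4:**
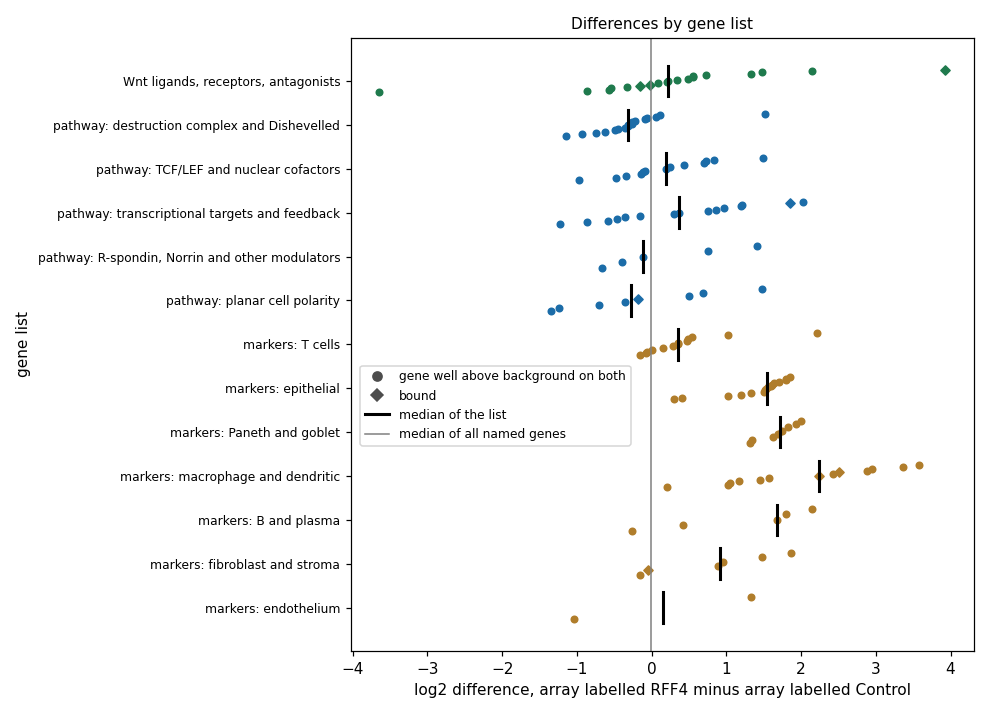
Log2 difference, array labelled RFF4 minus array labelled Control, of the genes with a difference in each list. Points are genes, diamonds are bounds, the black bar is the median of the list and the grey line the median of all named genes (−0.01). The Wnt genes (median 0.22) spread to both sides, while all 16 epithelial and all 8 Paneth and goblet markers lie above 0, of which 3 epithelial markers fall below it with the spike-in controls.

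Markers of other cells of the gut also differed between the arrays. All 16 epithelial markers passed the background call on both and were higher on the array labelled RFF4, 14 of them by more than 2-fold, and their summed level, in units of the 75th percentile of the array, was 234 on the Control array and 710 on the other. *Lgals4* (5.95 and 7.80) and *Krt19* (4.86 and 6.57) were high on both. All 8 Paneth and goblet cell markers were higher, with a summed level of 152 and 512, and all 13 macrophage and dendritic cell markers, with 56.4 and 132, or 10.4 and 79.5 without *Itgax*, the highest of them and a gene that IELs also express. With the spike-in controls 13 of the 16, all 8 and 10 of the 13 stayed higher, and with quantile normalization, cyclic loess or normexp 12 of the 13. Over 2-fold higher with the spike-in controls were 0 epithelial, 0 Paneth and goblet, and 7 macrophage and dendritic cell markers. The list medians were then 0.42, 0.60 and 1.11. The B and plasma cell list summed to 26.5 and 58.8, with *Cd79a* and *Pax5* below background on both arrays, and to 11.5 and 11.0 without *Jchain*, the highest of them, most of it *Cd79b* (3.42 and 3.17). Of its 5 genes with a difference 4 were higher, with *Mzb1* (2.15), *Ms4a1* (1.79) and *Jchain* (1.68) past 2-fold and a list median of 1.68. The fibroblast and stroma list summed to 22.8 and 44.5, nearly all of it *Vim*, which T cells also express, and to 0.788 and 1.82 without it, with *Pdgfra*, *Pdgfrb*, *Lum*, *Myh11* and *Des* below background on both arrays. Of its detected genes, *Dcn* (1.86) and *Col3a1* (1.47) were more than 2-fold higher, while *Col1a2* differed by 0.89 and *Col1a1* by −0.16. The endothelium list summed to 5.32 and 12.3, or 0.540 and 0.292 without *Kdr*, the highest of them. *Pecam1* was lower (−1.03), and *Cdh5*, *Emcn*, *Tek* and *Tie1* were below background. The T cell list summed to 2716 and 3680. *Wnt4*, *Wnt11*, *Wnt8b* and *Dkk3* were higher on the array labelled RFF4. So were the epithelial and myeloid markers, and 10 of the 13 T cell markers, under the percentile scaling. A single pair of arrays does not show whether such genes vary together. The cells were sorted for TCRβ and CD8α without CD4, TCRγδ and CD8β, a gate meant to exclude other cells of the gut. The study's methods give only a lower limit for the purity of the sort, so other cells may remain. Their part in these differences was not tested. Under the percentile scaling *Wnt5b* was lower, as were *Pecam1* (−1.03) of the endothelium list and *Cd79b* (−0.26) of the B and plasma cell list. Every gene of the epithelial, Paneth and goblet, and macrophage and dendritic cell lists was higher. Which cells carried the *Wnt5b* RNA was not tested.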

How the data were processed

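Gene expression was measured on 2 one-color Agilent arrays, 1 pooled RNA sample per genotype, each labelled from 150 ng of RNA. The authors deposited intensity values from Agilent Feature Extraction 10.7.1.1, background-subtracted, linear and not normalized between arrays, with flags for outliers and for signal well above background. The authors also deposited a table of log2 values with each probe centered over the arrays. Its settings are not given in the sources used here, and between arrays it differs from the scanner signals by a constant alone. The array header names a genome build other than the reference, so no probe coordinates are given.

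Log2 signals minus the 75th percentile of each array over gene spots (8.99 for Control and 7.82 for RFF4) were computed without control and outlier spots, and spots of a probe were averaged. The call well above background required it of 50% or more of a probe's spots. RefSeq accessions were given for 29150 of 55679 probes, and 27509 matched a symbol of GRCm38.p6. A gene was its brightest probe among those so called on either array. Where the dimmer array failed the call, a bound was set against its signal or the array's lowest signal passing the call, whichever was higher, and none was given under 1-fold. Text may name every Wnt gene, other pathway genes over 2-fold, the TCF/LEF genes, the brightest and defining markers, and *Rbpj*, *Heyl* and *Dtx1*. *Gsk3a*, *Gsk3b* and the genes of the closing section under 2-fold were chosen after their values were seen. The genes and lists were chosen with earlier results of these data known. A marker of the B and plasma cell list was left out and is not reported here. Promoter windows are RefSeq's, cut to the 250 bases before each start.

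The alternatives were median scaling, quantile normalization, cyclic loess, the percentile over probes well above background on both arrays, 8 spike-in controls set equal, normexp with an offset of 50 on median signals, the deposited table, the mean of all probes, counts per probe, genes on both arrays, no filter, plain ratios, outliers kept, and every spot well above background. A difference was called unchanged if it moved by less than 0.16, and a count within 1.5 times. The calculation was first tested on simulated arrays. Python 3.11.15 with numpy 2.4.6, pandas 2.3.3, scipy 1.17.1 and matplotlib 3.10.9, and R 4.3.3 with limma 3.58.1, were used.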

Additional observations from a re-analysis of the deposited data

How the results depend on the processing

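No paired analysis was possible because each genotype has 1 array, and no array could be left out. Of 279 recomputed differences of single genes, 203 moved by less than 0.16, and no called difference reversed (0). Both counts were partly fixed in advance and do not measure robustness. The settings for filters, bounds, outliers and spots hardly change a gene measured on both arrays, and median scaling moves every measured gene by the same small amount. With the spike-in controls set equal, the median of all genes shifted by −1.08, that of the Wnt genes was −0.91, of the other pathway genes −1.23 and of the target genes −0.76, with 2 Wnt genes over 2-fold higher and 9 lower (all genes 1.39% and 56.7%). Median scaling shifted all genes by −0.17 and gave 0.038, −0.29 and 0.19, with 2 lower (all genes 7.98%), and cyclic loess shifted them by −0.12 and gave −0.29 for the other pathway genes, with 2 lower (6.67%). The mean of all probes gave a Wnt median of 0.41. With no filter and no bound it was 0.71, with 20 higher and 2 lower (30.0% and 4.72%), since probes at the floor differ by the scaling constants, and plain ratios gave 2 lower (6.70%). Of all genes over 2-fold, the share that was higher was 70.9%, and 54.8% with median scaling, 60.4% with cyclic loess, 2.40% with the spike-in controls and 86.4% with no filter. Of 57 probes, 56 had 1 spot, so signal near background limits the dim Wnt genes.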

Other observations

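Genes of planar cell polarity, the branch that orients cells through Frizzled and Dishevelled without β-catenin, were read beside the ligands. Of 12, 8 had a difference, with a median of −0.27 that was 0.44 over 7 genes with normexp correction and −1.15 when scaled on the spike-in controls. *Scrib*, a scaffold of cell polarity, read 5.57 on the Control array and 4.23 on the array labelled RFF4 (−1.34), and *Prickle1* 2.54 and 1.30 (−1.24). *Ptk7*, a pseudokinase co-receptor, read −0.30 and 1.18 (1.48, and 0.36 with the spike-in controls). *Vangl1* differed by −0.70, its paralogue *Vangl2* by 0.69 at its brighter probe and −0.66 at the other, where the first turned lower with the spike-in controls, and *Celsr1* by 0.49 (−0.63 with the spike-in controls), under 2-fold, and *Daam2* and *Prickle2* were below background on both arrays. As for the Wnt genes, 1 array per genotype allows no test.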
